A study of Mus musculus with 6 samples.

Results

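Mt1, Mt2, Mt3, Apoe and Clu are 5 genes whose RNA is abundant in astrocytes, and they were followed here through a Drop-seq experiment on the hippocampal CA1 region. They were chosen by name and make up 5 of the 20234 genes in the table. In Drop-seq a cell and a bead meet in a droplet, where the polyadenylated RNA is tagged with the barcode of that bead and with a molecular identifier, the UMI, that lets each molecule be counted once. Male C57Bl6 mice at postnatal day 28 had received either 1 injection of placebo (mice 1, 3 and 5) or 1 injection of 5000 IU/kg recombinant human erythropoietin (EPO, mice 2, 4 and 6), and CA1 was taken 6 h later, digested with papain and made into a cell suspension. The titles also give a D number whose meaning is not stated, D1 for placebo mice 1 and 3 and EPO mouse 2, and D2 for placebo mouse 5 and EPO mice 4 and 6. The mouse is the replicate throughout, with 3 mice per treatment.

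Metallothioneins are small cysteine-rich proteins that bind zinc and copper. Mt1 and Mt2 are classically induced by zinc and other metals through metal response elements read by the zinc sensor MTF-1, and by glucocorticoids through the glucocorticoid receptor and elements of its own, whereas Mt3 is the brain-enriched form and is less responsive to metals. Apolipoprotein E, the product of Apoe, is the main lipid carrier that astrocytes secrete in the brain, and clusterin (apolipoprotein J, the product of Clu) is a secreted chaperone found on the same kind of particles. In the brain all of these are known first as astrocyte products, although microglia can express Apoe and neurons can express Mt3 and Clu.

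In GENCODE vM21 (build GRCm38) the 3 metallothionein genes lie together on the forward strand of chromosome 8, Mt3 at 94152607 to 94154146, Mt2 at 94172664 to 94173568 and Mt1 at 94179082 to 94180327, with 18518 bases between Mt3 and Mt2 and 5514 between Mt2 and Mt1. Apoe lies on the reverse strand of chromosome 7 at 19696109 to 19699188 and Clu on the forward strand of chromosome 14 at 65968483 to 65981547. All 5 are protein coding. RefSeq promoter windows (GRCm38.p6) were found for Mt1, Mt2, Mt3 and Apoe. The metal response element core, TGCACNC or TGCGCNC, was searched on both strands of the 300-base windows, which run from 250 bases before to 50 bases after a start site. It occurred 4 times for Mt2, 3 times for Mt1, once for Mt3 and not in the 3 windows of Apoe. Of 32851 windows in all, 25.7% held at least 1 core, 1.97% at least 3 and 0.517% at least 4. A match is a description of the letters only. The 250 bases before the RefSeq start sites of the 3 metallothionein genes are shown because the levels of Mt1 and Mt2 followed each other across barcode classes more closely than that of Mt3 followed either. The cores are in capitals, and the remaining cores of Mt1 (2), Mt2 (1) and Mt3 (1) lie in the 50 bases after the start.
Mt1 (chr8:94178839-94179088, forward strand): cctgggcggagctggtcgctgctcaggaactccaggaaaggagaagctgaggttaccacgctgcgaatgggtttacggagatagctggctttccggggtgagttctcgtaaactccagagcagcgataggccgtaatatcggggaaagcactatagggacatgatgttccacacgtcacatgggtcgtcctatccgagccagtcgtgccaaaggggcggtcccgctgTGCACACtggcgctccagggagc
Mt2 (chr8:94172368-94172617, forward strand): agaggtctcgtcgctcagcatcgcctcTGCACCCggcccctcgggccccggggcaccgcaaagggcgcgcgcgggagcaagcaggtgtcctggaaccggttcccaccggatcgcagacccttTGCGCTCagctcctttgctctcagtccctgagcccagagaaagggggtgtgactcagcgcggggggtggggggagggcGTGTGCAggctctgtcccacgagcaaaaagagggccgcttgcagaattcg
Mt3 (chr8:94152357-94152606, forward strand): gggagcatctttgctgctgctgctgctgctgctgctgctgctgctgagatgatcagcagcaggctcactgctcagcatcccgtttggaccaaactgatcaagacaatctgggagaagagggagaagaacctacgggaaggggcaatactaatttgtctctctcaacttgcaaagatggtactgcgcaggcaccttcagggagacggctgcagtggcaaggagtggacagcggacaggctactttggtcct

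The table gives 1000 barcodes per mouse. Barcodes with 501 to 8000 detected genes and at most 40% of UMIs from the 27 mt- genes were retained, 1632 in all, with 90 in placebo mouse 3 and 253 to 405 in the other mice. Placebo mouse 3 was the shallowest library with 267231 retained UMIs and EPO mouse 4 the deepest with 2150763, and the median mitochondrial share lay between 4.61% (EPO mouse 6) and 19.0% (EPO mouse 2). Levels are given in CPM, a gene's UMIs scaled to 1000000 UMIs of the same barcodes, and as non-mitochondrial CPM where mt- UMIs are left out of the total. In placebo mouse 1 and EPO mouse 4, 41 retained barcode sequences were the same. Those 41 pairs also had like contents (median correlation 0.725 against 0.358 for unshared pairs) and held 7.16% of the UMIs of EPO mouse 4. In placebo mouse 1 they held far more, 619710 of its 1289386 retained UMIs, and leaving them out removes them from both mice. No retained barcode was shared by any other pair of mice. Where leaving these barcodes out turned the direction or changed the number of mice that agreed, the value without them stands beside the result. Clusters were made without the 5 genes among the variable genes and named from markers that hold none of them, and every cluster could be named. The 12 listed astrocyte markers gave 11 that are in the table, and their summed level ran from 24692 to 39388 CPM in astrocyte-like barcodes and from 221 to 682 in glutamatergic-like barcodes.

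All 5 genes were highest in astrocyte-like barcodes, in every mouse. These were 233 barcodes with a median of 1723 UMIs. Apoe, the lipid carrier, reached 14285, 18479 and 13732 CPM in placebo mice 1, 3 and 5, against 20261, 13478 and 20822 in EPO mice 2, 4 and 6. That was the fourth highest level of the 8841 genes with at least 100 UMIs in retained barcodes. Clu, the secreted chaperone, stood at 6039, 5306 and 3784 CPM in the placebo mice and at 4685, 5733 and 9608 in the EPO mice. Mt1 gave 4109, 7341 and 3261 in placebo mice 1, 3 and 5 and 5446, 3286 and 10189 in EPO mice 2, 4 and 6. EPO mouse 6 was the highest for Mt1, Mt2, Clu, Mt3 and Apoe alike. Mt2 stood at 2122, 2744 and 2094 CPM in placebo mice 1, 3 and 5, against 2730, 2164 and 4730 in EPO mice 2, 4 and 6. Mt3 split the mice differently, with 2602 and 2287 in placebo mice 1 and 3 and 1881 and 3055 in EPO mice 4 and 6, against 773 in placebo mouse 5 and 761 in EPO mouse 2.

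Glutamatergic-like barcodes (844, median 3688 UMIs) were the comparison class, because they are the largest and should hold few astrocyte transcripts. Mt1 averaged 5605 ± 2726 CPM in astrocyte-like and 125 ± 77.4 in glutamatergic-like barcodes (SD, n = 6 mice each), a log2 difference of 5.62 ± 0.58. Mt2 averaged 2764 ± 1009 against 39.9 ± 28.03, a log2 difference of 6.35 ± 0.92. Apoe averaged 16843 ± 3398 against 211 ± 172, a log2 difference of 6.79 ± 1.34. Clu averaged 5859 ± 2005 against 114 ± 43.9, a log2 difference of 5.70 ± 0.41. Mt3 had the smallest difference of the 5, with 1893 ± 953 against 224 ± 117 and a log2 difference of 3.11 ± 0.24. Each of the 5 was higher in 6 of 6 mice (exact two-sided sign-flip permutation test, p = 0.03125, the smallest that 6 mice allow, and 0.0402 after Benjamini-Hochberg adjustment over 9 comparisons). Over the 8841 genes, 10.0% were higher in astrocyte-like barcodes in all 6 mice and 30.1% were lower. By size of the log2 difference Apoe ranked 39, Mt2 60, Clu 94, Mt1 106 and Mt3 350 of 8841.

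**Figure D1:**
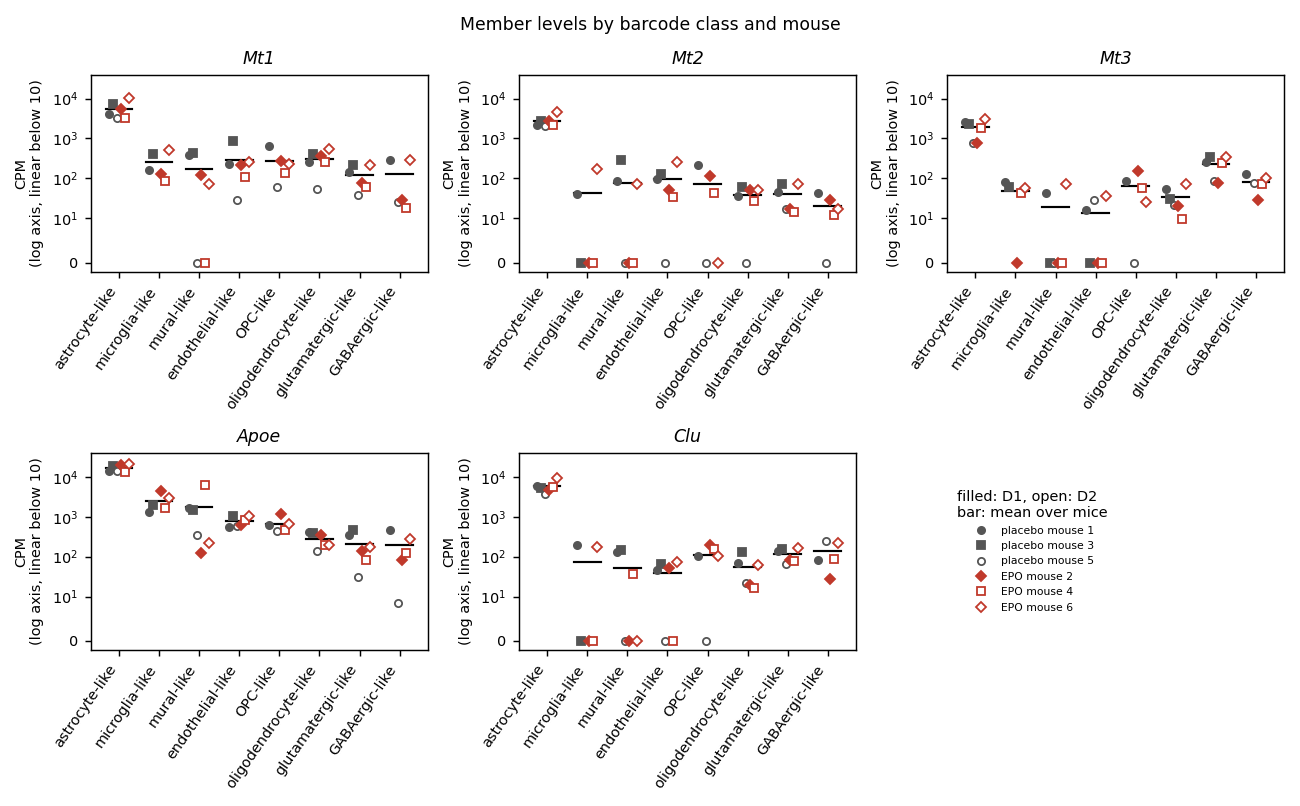
Each panel shows 1 gene, with the CPM on a log axis that is linear below 10, the 8 barcode classes along the x axis, 1 point per mouse with at least 5 barcodes of the class, and a bar at the mean over mice. The astrocyte-like class is the highest for all 5 genes, Apoe is also seen at 1349 to 4390 CPM in microglia-like barcodes, and the mural-like Apoe point at 6435 is EPO mouse 4.

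The share of barcodes with at least 1 UMI followed the levels. After each barcode was thinned to 500 UMIs, Apoe was seen in 233 of 233 astrocyte-like barcodes (exact 95% interval 98.4% to 100%), Clu in 89.3% (84.6% to 92.9%), Mt1 in 81.5% (76.0% to 86.3%), Mt2 in 70.4% (64.1% to 76.2%) and Mt3 in 54.9% (48.3% to 61.4%). In glutamatergic-like barcodes thinned the same way the shares were 6.28% for Apoe, 4.38% for Clu, 3.91% for Mt1, 0.948% for Mt2 and 7.35% for Mt3. No barcode fell under 500 UMIs, so none was left out. Without thinning the shares were 95.7% to 100% in astrocyte-like barcodes except 81.1% for Mt3, and 10.5% to 38.6% in glutamatergic-like barcodes. Intervals cover counting error only. Within astrocyte-like barcodes Apoe spread least around its median, with the tenth and ninetieth percentiles at 8077 and 27023 CPM and the median at 16579. Mt1 ran from 1131 to 11631 around 4965, and Mt3 from 0 to 4208 around 1483, with 44 of 233 barcodes holding no Mt3 UMI. Across the astrocyte-like barcodes of a mouse (20 to 50 barcodes), the log2 levels of Mt1 and Mt2 correlated with r from 0.41 to 0.78 (median 0.56 over 6 mice), the highest median of the 10 pairs, and those of Mt2 and Apoe with r from -0.29 to 0.59 (median -0.04). These barcodes share a library and their depth, so the correlations are descriptions.

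Of the remaining classes, microglia-like barcodes came next for Apoe. It averaged 2458 ± 1233 CPM in microglia-like barcodes (SD, n = 5 mice, as placebo mouse 5 had no such barcode), 1718 ± 2407 in mural-like, 790 ± 230 in endothelial-like, 677 ± 305 in OPC-like (oligodendrocyte precursor), 285 ± 119 in oligodendrocyte-like, 211 ± 172 in glutamatergic-like and 191 ± 180 in GABAergic-like barcodes. Neighbours in this order overlapped between mice except OPC-like (434 to 1195) and oligodendrocyte-like (140 to 424) barcodes, and the OPC-like value leaves out placebo mouse 3, which had 3 such barcodes. The microglia-like values were 1349, 1980, 4390, 1643 and 2930 in placebo mice 1 and 3 and EPO mice 2, 4 and 6. The astrocyte-like level was higher in all 5 of these mice by 2.93 ± 0.46 on the log2 scale (exact sign-flip permutation test, p = 0.0625, the smallest that 5 mice allow). In EPO mouse 2, 1 microglia-like barcode held 78 Apoe UMIs together with 11 Cd163 and 12 Lyz2 UMIs, both macrophage genes, and without it that mouse stood at 2520 CPM.

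Mural-like Apoe came mostly from 1 barcode. That barcode, in EPO mouse 4, held 173 of the 230 Apoe UMIs of the class (75.2%), and without it this mouse had no Apoe UMI in mural-like barcodes. It also held 645 Ptgds, 113 Igf2, 38 Col1a2 and 21 Dcn UMIs, of which Col1a2 and Dcn are fibroblast markers, and it sits in a cluster whose leading genes include Vtn and Kcnj8 as well as Col1a2. These companion genes were chosen after their values had been seen.

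Each of the other 4 genes had another second class. Mt1 averaged 314 ± 167 CPM in oligodendrocyte-like barcodes, 4.28 ± 0.77 on the log2 scale under the astrocyte-like level (6 of 6 mice, exact sign-flip permutation test, adjusted p = 0.0402). Mt2 averaged 94.9 ± 91.9 in endothelial-like barcodes, 5.15 ± 1.22 on the log2 scale under the astrocyte-like level in 6 of 6 mice with the same p. That endothelial-like level rested on 20 Mt2 UMIs, with 0 in placebo mouse 5, and overlapped the OPC-like and mural-like levels between mice. Clu averaged 135 ± 96.8 in GABAergic-like barcodes (n = 5 mice), 5.57 ± 1.07 under the astrocyte-like level (exact permutation p = 0.0625). Below these, the Mt1 levels of the endothelial-like, OPC-like, microglia-like, mural-like, GABAergic-like and glutamatergic-like classes ran from 284 to 125, and each overlapped its neighbours between mice. Clu followed with 114 in glutamatergic-like and 111 in OPC-like barcodes, which overlapped too. For Mt3 the second class was glutamatergic-like, 3.11 ± 0.24 under the astrocyte-like level on the log2 scale, followed by GABAergic-like at 81.4 ± 36.8, while endothelial-like barcodes held 3 Mt3 UMIs and mural-like 2. Summed over a mouse's retained barcodes, astrocyte-like barcodes held 74.0% of Mt1, 85.6% of Mt2, 81.5% of Apoe and 81.4% of Clu UMIs on average. For Mt3 they held 47.3% and glutamatergic-like barcodes 48.0%.

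The genes most like each member were sought over 45 sums of a class in a mouse with at least 5 barcodes, among the 8841 genes, by Pearson correlation of log2 levels. For Mt1 they were Mt2 (r = 0.89), Aldoc (0.86), Mlc1, Ntsr2 and Gja1 (0.79 each). For Mt2 they were Mt1 (0.89), Ntsr2 (0.88), Gja1 (0.88), Ezr and Mlc1 (0.85 each). For Apoe they were Gja1 (0.84), Gjb6, Plcd4, Mlc1 and Slc1a3, with the last at 0.82. Most of these are known astrocyte genes: Gja1 and Gjb6 encode gap junction connexins, Slc1a3 a glutamate transporter and Aldoc a glycolytic aldolase. Mt3 had another set, Cpe (0.89), Slc1a2 (0.88), Clu (0.88), Tspan7 (0.86) and Aldoc (0.83). Clu was nearest to Aldoc (0.89), Mt3 (0.88), Slc4a4, Slc1a2 and Tspan7. Between members, Mt3 correlated with Mt1 at 0.66, with Mt2 at 0.72 and with Apoe at 0.48. Gja1, Gjb6, Slc1a3, Slc1a2, Slc4a4, Aldoc and Ntsr2 are among the markers that named the astrocyte-like class and were not kept out of the clustering. The classes themselves thus favour a high correlation for these genes. The sums of a mouse share a library, and genes are not independent replicates.

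Other genes of the same pathways were set beside them in astrocyte-like and glutamatergic-like barcodes. They had not been kept out of the clustering, so their values describe the clusters. Of 18 zinc and metal handling genes, 16 had at least 100 UMIs, and 1 was higher in astrocyte-like barcodes in 6 of 6 mice and 3 were lower, where 10.0% and 30.1% of all 8841 genes were. The zinc importer Slc39a12 stood at 393 CPM against 2.12. The neuronal vesicle zinc transporter Slc30a3 had no UMI in astrocyte-like barcodes, where 3 UMIs would be 5.90 CPM, against 49.0 in glutamatergic-like barcodes. The zinc transporters Slc39a10 (68.7 against 224) and Slc30a9 (66.7 against 126) were also lower. Of 22 genes of apolipoprotein and lipid transport, 17 were measured, 8 were higher and 5 lower in 6 of 6 mice, beside the same 10.0% and 30.1%. Abca1, which loads lipid onto apolipoproteins, stood at 158 against 9.77 and Lcat, which esterifies cholesterol on such particles, at 219 against 0.69, whereas the receptors Sorl1 (181 against 402) and Vldlr (28.2 against 110) were lower in astrocyte-like barcodes. The median log2 difference was 0.19 for the zinc list and 0.71 for the lipid list, beside -0.37 over all 8841 genes.

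The 4292 barcodes with 500 genes or fewer, which hold few UMIs each, were taken as a measure of RNA outside intact cells. With median gene counts of 788 in astrocyte-like and 732 in microglia-like barcodes, shallow or damaged cells may be among these low barcodes, which was not tested. In CPM, Apoe stood at 2437 ± 532 in them against 1694 ± 1013 in retained barcodes (SD, n = 6), Mt1 at 760 ± 316 against 638 ± 480, Clu at 763 ± 227 against 559 ± 279, Mt2 at 326 ± 92.2 against 260 ± 153 and Mt3 at 246 ± 98.9 against 313 ± 180. None of these differences passed the test (log2 differences -0.21 to 0.68, exact sign-flip permutation test, adjusted p from 0.26 to 0.38). Mitochondrial UMIs made up 20.2% to 56.0% of the low barcodes of a mouse and 3.73% to 16.2% of its retained UMIs. In non-mitochondrial CPM the log2 differences became 1.28 for Apoe, 1.14 for Clu, 1.09 for Mt2 and 1.08 for Mt1 (exact sign-flip permutation test, adjusted p = 0.0391 each), and 0.39 for Mt3 (adjusted p = 0.1875). On the same scale the 11 astrocyte markers were higher by 1.44 in 6 of 6 mice, the oligodendrocyte markers lower by 0.83 in 6 of 6, and the microglia markers gave 1.96 ± 2.90 and were higher in 5 of 6. Their part in the members' differences was not tested.

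Relative to the astrocyte markers in the same barcodes, the mean ratio of each member was somewhat lower in low than in astrocyte-like barcodes. This was not tested. For Mt2 the ratio was lower in every mouse. Single mice differed more than the means. In placebo mouse 5 Mt2 went from 8.48 to 4.26 and Mt3 from 3.13 to 1.56, whereas in EPO mouse 4 Mt3 went from 6.05 to 8.42. Per 100 UMIs of the 11 markers there were 52.5 ± 4.7 Apoe UMIs in astrocyte-like and 49.1 ± 3.8 in low barcodes, 16.9 ± 5.7 and 15.3 ± 5.6 for Mt1, 18.1 ± 4.4 and 15.2 ± 2.9 for Clu, 8.48 ± 1.80 and 6.64 ± 1.66 for Mt2, and 5.89 ± 2.80 and 5.34 ± 2.63 for Mt3. The mouse to mouse pattern of Mt3 was present in the low barcodes too, where placebo mouse 5 had 1.56 and EPO mouse 2 had 2.87 per 100, against 5.51 to 8.42 in the other 4 mice.

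**Figure D2:**
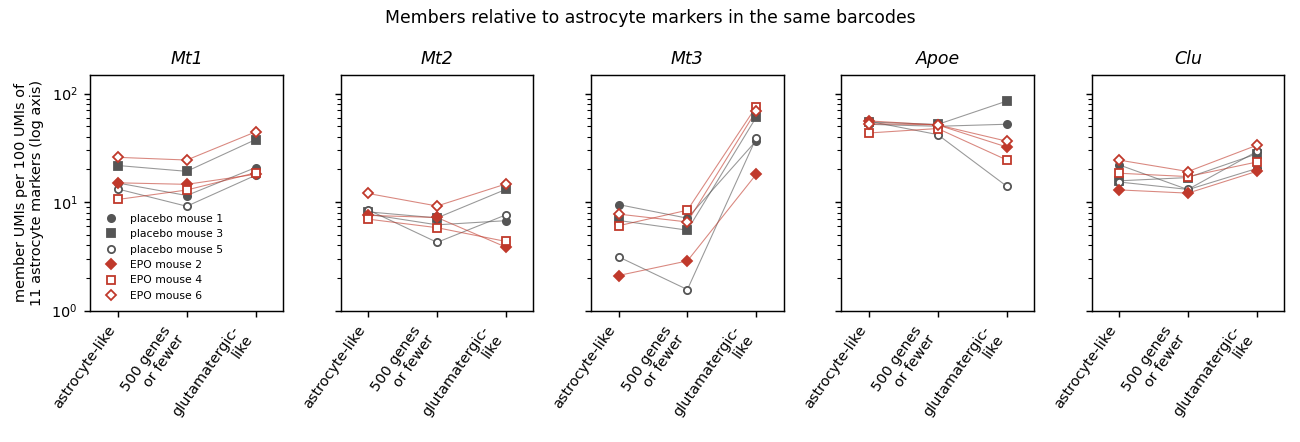
UMIs of each gene per 100 UMIs of the 11 astrocyte markers (log axis) are shown in astrocyte-like barcodes, barcodes with 500 genes or fewer and glutamatergic-like barcodes, with 1 line per mouse. From astrocyte-like to low barcodes all lines fall for Mt2, and for each other gene most lines fall but not all. For Mt3 the lines climb in glutamatergic-like barcodes to between 18.0 and 75.9.

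In glutamatergic-like barcodes the Mt3 ratio stood above both the astrocyte-like and the low-barcode ratio. The 11 markers named the classes and were not kept out of the clustering, so the classes themselves favour a high ratio outside astrocyte-like barcodes. There were 50.0 ± 22.3 Mt3 UMIs per 100 astrocyte marker UMIs, above the astrocyte-like ratio in 6 of 6 mice, with 36.8, 60.7 and 39.0 in placebo mice 1, 3 and 5 and 18.0, 75.9 and 69.4 in EPO mice 2, 4 and 6. The ratio was also above in 6 of 6 mice for Mt1 (26.2 ± 11.7) and in 5 of 6 for Clu (25.6 ± 5.5), by a smaller margin. It was above in 2 of 6 mice for both Mt2 (8.39 ± 4.53) and Apoe (40.8 ± 25.2). In oligodendrocyte-like barcodes the mean ratio was 124 ± 92.1 for Mt1, 103 ± 39.3 for Apoe and 16.8 ± 9.0 for Clu. There it was 13.6 ± 10.3 for Mt2 and 13.6 ± 11.9 for Mt3, from 30 and 28 UMIs. A ratio above that of astrocyte-like barcodes was thus not particular to Mt3 or to glutamatergic-like barcodes. As a share of the level in low barcodes of the same mouse, both in non-mitochondrial CPM, the glutamatergic-like level was 32.2% to 84.4% for Mt3, 4.02% to 20.3% for Mt1, 4.66% to 17.6% for Clu, 2.73% to 12.7% for Mt2 and 0.698% to 11.7% for Apoe. All 5 genes were therefore lower in glutamatergic-like barcodes than in low barcodes, and the part of free RNA in these UMIs was not tested.

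Mt3 varied over the 5 glutamatergic-like clusters, and the differences between them were not tested. It averaged 316 ± 191 non-mitochondrial CPM in the cluster led by Slc17a6, Vsnl1 and Nts and 271 ± 128 in that led by Spink8, Hpca and Calb1 (n = 5 mice each), both with a low median mitochondrial share (5.16% and 3.89%) and many UMIs per barcode (medians 8436 and 12117). It averaged 137 ± 102 in the cluster led by Fibcd1 and the hemoglobin gene Hba-a1 (n = 5), 111 ± 111 in that led by Cpne7 and 95.5 ± 98.8 in that led by Rxfp1 (n = 6 each), whose median mitochondrial shares were 9.82%, 19.3% and 21.1%. Apoe ran the other way, from 126 ± 125 in the cluster led by Spink8 to 322 ± 217 in that led by Rxfp1. Values within 1 SD of these means overlap between the extreme clusters for both genes, although the same mice supply both. Mt3 in the clusters led by Slc17a6 and Rxfp1 was 377 and 153 in placebo mouse 1 and 73.6 and 0 in placebo mouse 5. It was 157 and 8.99, 477 and 92.0, and 496 and 57.9 in EPO mice 2, 4 and 6. Apoe was higher in the cluster led by Rxfp1 than in that led by Spink8 in each of these 5 mice. Placebo mouse 3 enters only the means with n = 6.

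**Figure D3:**
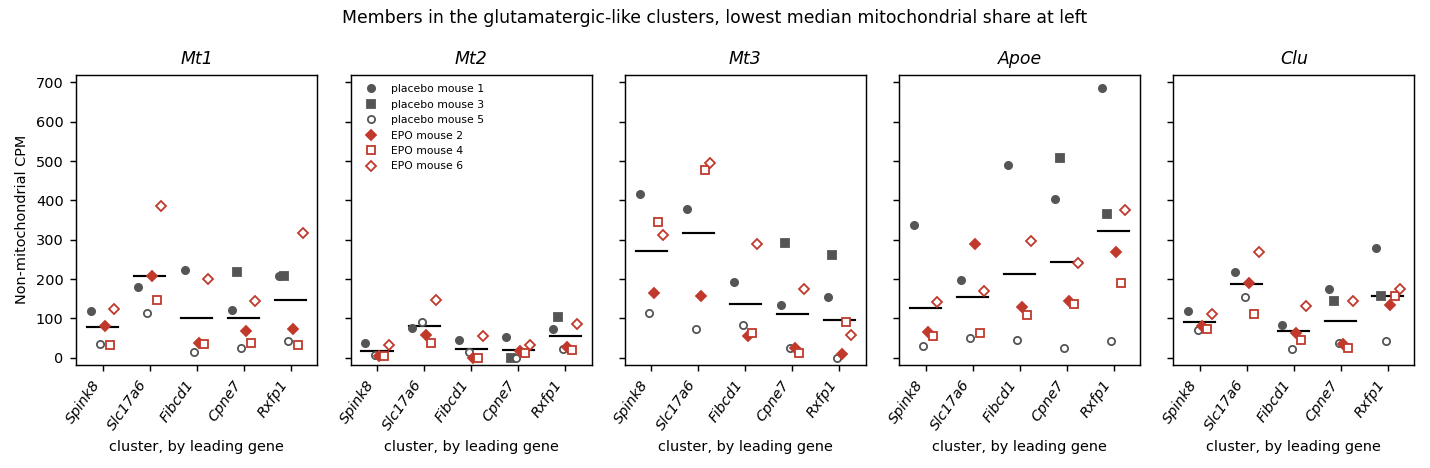
Non-mitochondrial CPM in each glutamatergic-like cluster, named by its leading gene and ordered from the lowest to the highest median mitochondrial share, with 1 point per mouse with at least 5 barcodes and a bar at the mean. Mt3 is highest in the 2 clusters at left, with means of 271 and 316, and Apoe in the cluster at right, with a mean of 322.

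Mitochondrial share was then compared within the whole class, because it differs between mice and its UMIs enter the denominator. Glutamatergic-like barcodes of each mouse were split at the median share of that mouse. Mt3 in non-mitochondrial CPM was 191, 194 and 28.6 above the median and 318, 466 and 112 at or below it in placebo mice 1, 3 and 5, and 17.3, 57.4 and 154 above and 121, 345 and 386 at or below it in EPO mice 2, 4 and 6. It was thus lower above the median in 6 of 6 mice, with a log2 difference of -1.70 ± 0.77 (exact sign-flip permutation test, p = 0.03125, adjusted p = 0.0781). Without the shared barcodes it was -1.56 (exact permutation p = 0.0625, adjusted p = 0.156), so the mice no longer all agreed. Apoe was higher above the median in 6 of 6 mice, by 0.74 ± 0.27 (336.5 ± 273 against 209.8 ± 174, the same exact p-values), and by 0.53 among barcodes with at most 20% mitochondrial UMIs (exact permutation p = 0.0938). Mt1 (-0.29 ± 0.52), Mt2 (-0.03 ± 1.10) and Clu (-0.13 ± 0.44) gave no difference past their spread between mice. They were higher above the median in 2, 1 and 2 of 6 mice. For Mt2 the 1 mouse was placebo mouse 3 (194 against 43.7), which had 8 Mt2 UMIs in 27 glutamatergic-like barcodes. Among barcodes with at most 20% mitochondrial UMIs, however, Mt1 was lower above the median by -0.93 (exact permutation p = 0.03125, adjusted p = 0.0781) and Mt2 by -0.88 (p = 0.0625, adjusted p = 0.104). For Mt2 the difference was 0.21 without the shared barcodes. None of the 5 passed 0.05 after adjustment. Within single clusters the Mt3 split was smaller: it was lower above the median in 4 of 5 mice in the cluster led by Cpne7 (60.2 against 91.0), in 3 of 5 in those led by Spink8 (219 against 284) and Fibcd1 (131 against 146) and in 1 of 4 in that led by Slc17a6 (322 against 355), and it was higher in 3 of 5 in that led by Rxfp1 (81.8 against 51.4). In astrocyte-like barcodes the same split gave log2 differences of -0.13 for Mt3 and -0.19 for Apoe, with 3 and 1 of 6 mice higher above the median.

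**Figure D4:**
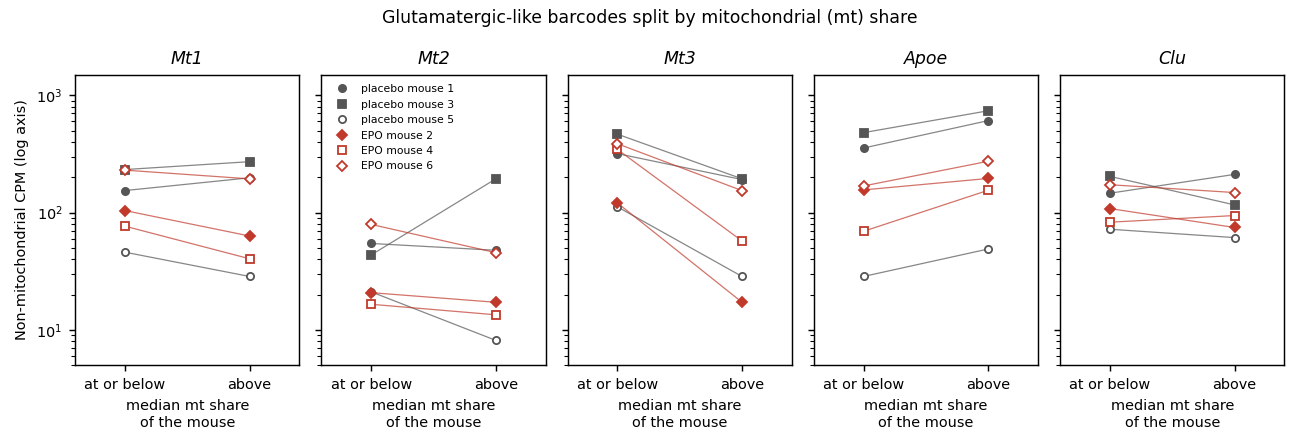
Levels in non-mitochondrial CPM (log axis) in glutamatergic-like barcodes at or below and above the median mitochondrial share of their mouse, with 1 line per mouse. All 6 lines fall for Mt3, from a mean of 291 to 107, and all 6 rise for Apoe, from a mean of 209.8 to 337.

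Across the 6 mice, no relation of a member's level to the median mitochondrial share of glutamatergic-like barcodes passed the test. Pearson's r ran from -0.12 for Mt3 to 0.53 for Apoe and Spearman's rho from -0.09 to 0.31 (exact permutation tests over 5 relations, adjusted p from 0.91 to 1 for both). Without placebo mouse 5 and EPO mouse 6, the farthest from the median share, r was -0.65 for Mt3 and 0.37 for Apoe. Levels over all retained barcodes were instead set beside the share of UMIs that came from astrocyte-like barcodes, which was 8.08%, 16.4% and 5.67% in placebo mice 1, 3 and 5 and 6.78%, 4.60% and 6.50% in EPO mice 2, 4 and 6. Pearson's r was 0.90 for Apoe, 0.81 for Mt1, 0.79 for Mt2, 0.77 for Clu and 0.56 for Mt3 (exact permutation p adjusted over the 5 relations 0.0312 for the first 4 and 0.26 for Mt3), and Spearman's rho was 0.49 to 0.83 (adjusted p from 0.13 to 0.36). Without placebo mouse 3 and EPO mouse 4, r fell to between 0.34 and 0.69, so the relation rests on those mice. Astrocyte-like barcodes held 81.5%, 74.0%, 85.6% and 81.4% of the retained UMIs of the first 4 genes and 47.3% for Mt3, on average. The same UMIs thus enter both sides. A positive r was therefore largely set in advance, and the test cannot show a relation beyond that. The 3 mice of a D number are too few for a correlation.

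EPO was compared with placebo on UMIs summed per mouse. In all retained barcodes the levels overlapped between treatments for all 5 genes, as they did for all but 6.26% of the 10551 genes tested. Mt1 stood at 513, 1482 and 221 CPM in the placebo mice (1, 3 and 5) and at 480, 238 and 892 in EPO mice 2, 4 and 6. Apoe was 1577, 3604 and 833 in the placebo mice and 1720, 847 and 1584 in the EPO mice. Placebo mouse 3, with the largest share of astrocyte-like UMIs, was the highest for each of the 5 genes. The edgeR quasi-likelihood test gave log2 fold changes (EPO against placebo) of -0.55 (SE 0.77) for Mt1, -0.36 (0.57) for Mt2, -0.38 (0.66) for Mt3, -0.60 (0.52) for Apoe and -0.42 (0.46) for Clu, with adjusted p of 1.00 for each. Of 10551 genes tested, 0 were called (0%, with 137 at an unadjusted p under 0.05). DESeq2 called 1 gene. Without placebo mouse 3 the fold changes of all 5 members were above 0, with Mt1 at 0.44 and Apoe at 0.14. Within D1 (1 EPO and 2 placebo mice) the log2 differences were -0.86 for Mt1, -0.70 for Mt2, -2.01 for Mt3, -0.47 for Apoe and -0.999 for Clu. Within D2 (2 EPO and 1 placebo mice) they were 1.06, 0.66, 1.57, 0.48 and 0.82 in the same order. The directions of these mean differences were thus opposite in D1 and D2. Placebo and EPO mice overlapped, however, for Apoe within D1 and for Mt2 within D2. In summed barcodes, fewer cells of a type and less RNA per cell cannot be told apart.

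Within astrocyte-like barcodes, where the share of the class does not enter, Apoe averaged 15499 ± 2595 CPM in placebo and 18187 ± 4088 in EPO mice (SD, n = 3 each), Clu 5043 ± 1150 and 6675 ± 2593, Mt1 4904 ± 2153 and 6307 ± 3531, Mt2 2320 ± 368 and 3208 ± 1348, and Mt3 1887 ± 977 and 1899 ± 1147. EPO mouse 6 was the highest for all 5, and the treatments overlapped for each. The log2 fold changes were 0.21 (SE 0.21) for Apoe, 0.35 (0.24) for Clu, 0.31 (0.33) for Mt1, 0.42 (0.24) for Mt2 and -0.06 (0.54) for Mt3 (edgeR quasi-likelihood test, adjusted p = 0.998 each). Of 1421 genes tested, 0 were called (0%, 53 at an unadjusted p under 0.05, and 0 by DESeq2). On simulated counts of these 6 libraries, 73.5% of genes changed 4-fold and 15% of genes changed 2-fold were called in this class, so differences of the size seen here would seldom be detected.

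**Figure D5:**
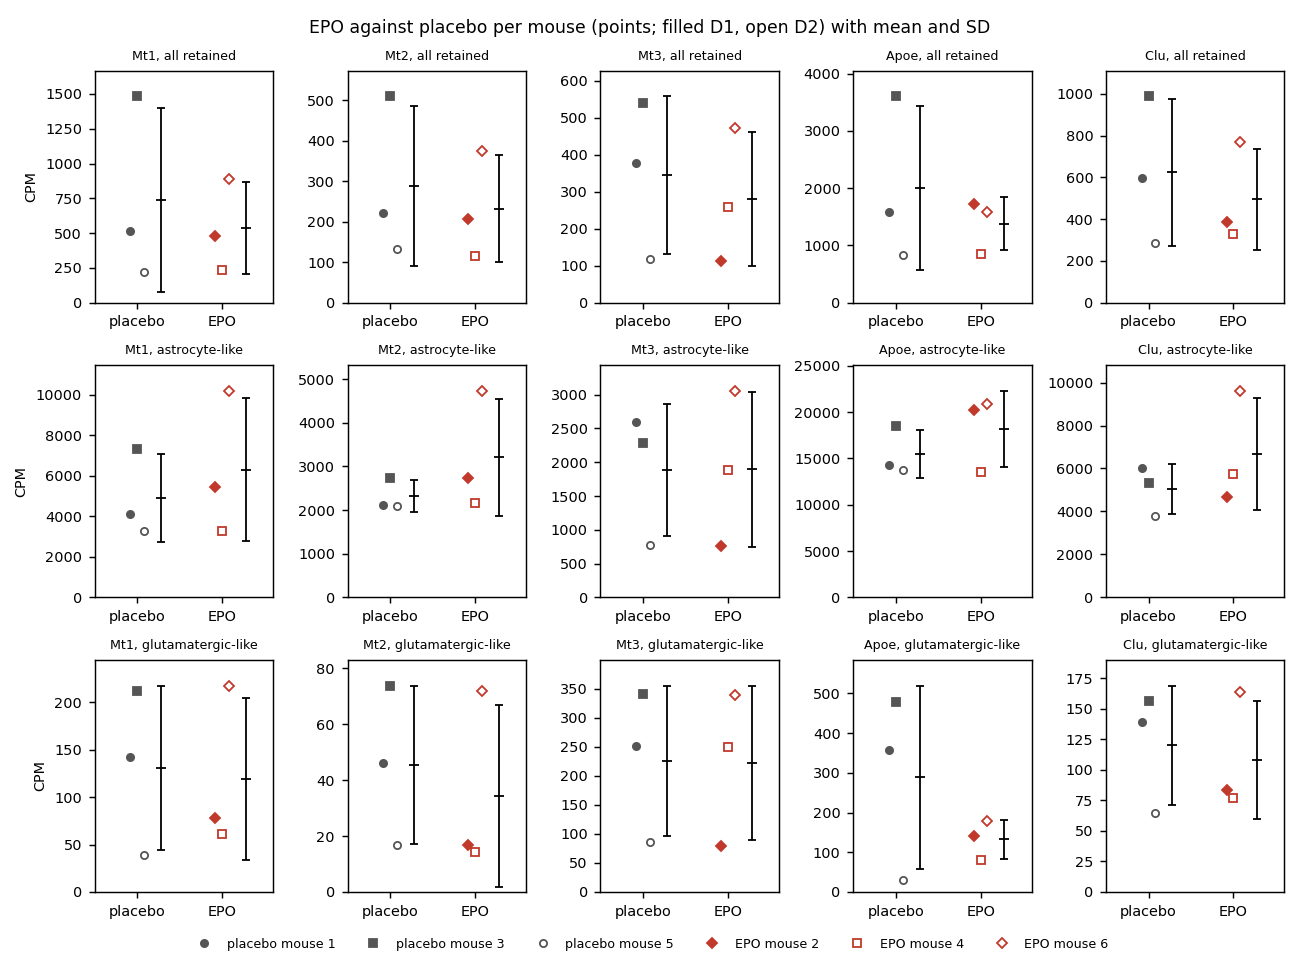
CPM of the 5 genes in all retained, astrocyte-like and glutamatergic-like barcodes, with 1 point per mouse, filled for D1 and open for D2, and the mean and SD per treatment. Placebo and EPO mice overlap in every panel, and placebo mouse 3 is the highest point in all 5 panels of retained barcodes.

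In glutamatergic-like barcodes Apoe stood at 356, 478 and 31.0 CPM in the placebo mice (1, 3 and 5) and at 140, 80.5 and 179 in EPO mice 2, 4 and 6. Placebo mouse 5 was thus the lowest of all 6 mice and the other placebo mice were the highest. The log2 fold change was -1.10 (SE 1.10, edgeR, adjusted p = 1.00), and without placebo mouse 5 it was -1.755 with an adjusted p of 0.00248, 1 of 5 genes called in that fit. Within D1 the log2 difference was -1.56 and within D2 it was 1.93. In non-mitochondrial CPM these Apoe levels are at most 11.7% of those in the low barcodes of the same mouse. The other members had log2 fold changes of -0.05 (SE 0.87) for Mt1, -0.12 (0.91) for Mt2, -0.01 (0.80) for Mt3 and -0.15 (0.35) for Clu, adjusted p = 1.00 each. Without the barcodes shared by placebo mouse 1 and EPO mouse 4 these were 0.10 for Mt1, 0.21 for Mt2, 0.24 for Mt3 and -0.076 for Clu. With all 6 mice 0 of 8805 genes were called (0%, 154 at an unadjusted p under 0.05, and 0 by DESeq2). In oligodendrocyte-like barcodes the fold changes were 0.69 (SE 0.50) for Mt1 and -0.41 (0.36) for Apoe (edgeR, adjusted p = 0.999 each), with 0 of 1637 genes called (0%, 32 at an unadjusted p under 0.05, and 0 by DESeq2), while Mt2, Mt3 and Clu had 28 to 39 UMIs in the class and were not tested. Without the shared barcodes the oligodendrocyte-like value of Apoe was 0.15.

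In endothelial-like and mural-like barcodes some mice had 9 or fewer barcodes, and the members were compared by exact permutation tests of 3 mice against 3, which cannot give a p under 0.1. Apoe averaged 739 ± 270 CPM in endothelial-like barcodes of placebo and 841 ± 227 of EPO mice (two-sided exact permutation p = 0.5), and Mt1 373 ± 429 and 195 ± 79.3 (p = 0.9). The other p-values in these classes lay between 0.3 and 0.9.

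None of the 16 zinc and metal handling, 19 lipid transport, 9 glucocorticoid response and 13 dissociation and stress genes tested in all retained barcodes was called in either direction. In that fit Fth1 (ferritin heavy chain) had a log2 fold change of -0.39 (SE 0.30), Sod1 -0.18 (0.22), the lipoprotein receptor Sorl1 0.27 (0.25), Apod -0.64 (0.49), the glucocorticoid target Tsc22d3 -0.39 (0.36), Zbtb16 0.44 (0.23), the chaperone Hsp90aa1 0.11 (0.37) and Jun -0.43 (0.25). The medians of these lists ran from -0.23 to -0.08, beside -0.42 for the 5 members and -0.01 for all genes tested. None of the list genes was called in glutamatergic-like, astrocyte-like or oligodendrocyte-like barcodes. In astrocyte-like barcodes the zinc importer Slc39a12 had 0.30 (SE 0.29) and Fth1 -0.75 (0.27), both with adjusted p = 0.998 (edgeR). Slc39a12 stood at 317, 320.2 and 405 CPM in the placebo mice (1, 3 and 5) and at 446, 415 and 453 in EPO mice 2, 4 and 6. The treatments did not overlap for Slc39a12 in this class, nor for 8.09% of all genes tested there. Of the other list genes tested they did not overlap for Zbtb16 and Abcg1 (-0.23, SE 0.23) in all retained barcodes (6.26% of all genes tested), for Zbtb16 and Npc2 in glutamatergic-like barcodes (6.45%) and for Npc2 in oligodendrocyte-like barcodes (6.72%), while the 5 members overlapped wherever they were tested.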

How the data were processed

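The values analysed are raw counts of UMIs, as the authors deposited them in 1 table of genes by barcodes, and the submitters' processing notes name bcl2fastq 2.15, STAR 2.4.0 and build mm10. The annotation and the choice of 1000 barcodes per mouse are not given in the sources used here. A gene with no UMI in a mouse was set to 0. Barcodes with 501 to 8000 genes and at most 40% mitochondrial UMIs were clustered in Seurat 5.3.0 (R 4.3.3, 1000 variable genes per treatment without the 5 members, anchor integration, 20 dimensions, resolution 1) and named from fixed markers. Genes whose share of barcodes in a cluster was under 2 times that elsewhere were left out of the naming check, a rule chosen after seeing the data. Doublets were kept. Levels are CPM, with 0.5 UMI added on log scales. UMI counts summed per mouse were tested by edgeR 4.0.16 (quasi-likelihood, TMM, filterByExpr, Benjamini-Hochberg at 5%) in classes with at least 10 barcodes in every mouse, and checked on simulated counts, where 0 genes were called when none was changed. DESeq2 1.42.0 and limma 3.58.1 were alternatives. Members, gene lists and tests were chosen with earlier results of these data known. Named genes are the members, the 5 genes most like each, and up to 4 genes per list with the most UMIs, and other genes were named after their values were seen.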

Additional observations from a re-analysis of the deposited data

Results flagged for a closer look

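EPO and placebo mice were compared within D1 (EPO mouse 2, placebo mice 1 and 3) and within D2 (EPO mice 4 and 6, placebo mouse 5), and a gene is given here where every EPO mouse lay on one side of every placebo mouse in D1 and on the opposite side in D2. The difference between D1 and D2 was not tested, and each side rests on 1 mouse of 1 treatment. All values are log2 differences, EPO minus placebo, D1 first. In all retained barcodes Mt1 had -0.86 and 1.06, Mt3 -2.01 and 1.57, and Clu -0.999 and 0.82. In glutamatergic-like barcodes Mt1 had -1.16 and 1.55, Mt3 -1.90 and 1.75, Apoe -1.56 and 1.93, and Clu -0.84 and 0.79. In astrocyte-like barcodes Mt3 had -1.67 and 1.62, and Clu -0.27 and 0.97. In oligodendrocyte-like barcodes Apoe had -0.17 and 0.48. In endothelial-like barcodes Mt1 had -1.02 and 2.05, and Mt2 -1.12 and 2.94.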

How the results depend on the processing

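No paired analysis was possible because the treatments share no mouse numbers. Over 22 settings other than a left-out mouse, 395 results stayed the same, 33 reversed, 22 moved (18 of them shares of barcodes after other thinning), 4 became called and 1 was lost. A difference stayed the same if it kept its direction and side of the threshold. The 395 also include counts of genes called and 2 shares of barcodes, which have no direction. Where a result changed, the cause was not tested. In non-mitochondrial CPM the difference of low from retained barcodes was 1.08 for Mt1, 1.09 for Mt2, 1.28 for Apoe and 1.14 for Clu, all then called, and 0.39 for Mt3, and with 300 genes or fewer Mt2 had -0.062 and Clu -0.050. With over 1000 genes Mt2 between astrocyte-like and endothelial-like barcodes was 5.18 and lost its call (adjusted p = 0.0804, 5 mice, exact test). The mitochondrial split of Mt2 reversed with over 1000 genes (0.57), without integration (0.11) and without shared barcodes (0.21), and that of Clu without the cluster led by Fibcd1 (0.014). The last 2 settings were chosen after seeing the data.

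For EPO against placebo, DESeq2 called 1 gene in all retained barcodes, and with no filter on low counts 15 genes were called there, 5 in glutamatergic-like and 21 in astrocyte-like barcodes. With the D number as a term the log2 fold changes were 0.13 for Mt1 and 0.035 for Mt2 in all retained barcodes, 0.37, 0.019, 0.046, 0.12 and 0.066 for Mt1, Mt2, Mt3, Apoe and Clu in glutamatergic-like, 0.014 for Mt3 in astrocyte-like and 0.099 for Apoe in oligodendrocyte-like barcodes. In glutamatergic-like barcodes Mt1 also reversed with total UMIs only (0.073), no filter (0.0013), over 1000 genes (0.018), at most 20% mitochondrial UMIs (0.13), without shared barcodes (0.10) and without the Fibcd1 cluster (0.27). Under the last 3 Mt2 had 0.17, 0.21 and 0.12 and Mt3 had 0.072, 0.24 and 0.080, and Mt3 had 0.11 with total UMIs only and 0.046 with no filter. In astrocyte-like barcodes Mt3 had 0.020 with total UMIs only and 0.065 with no filter. Apoe in oligodendrocyte-like barcodes had 0.15 without shared barcodes.

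Leaving out each mouse in turn, the class differences were 5.47 to 5.77 for Mt1, 6.16 to 6.60 for Mt2, 3.06 to 3.18 for Mt3, 6.40 to 7.10 for Apoe, 5.60 to 5.84 for Clu against glutamatergic-like, 3.98 to 4.41 for Mt1 against oligodendrocyte-like and 4.74 to 5.37 for Mt2 against endothelial-like barcodes, none called, since 5 mice cannot give an exact p under 0.0625. The mitochondrial split of Mt2 was -0.44 to 0.19. The EPO fold changes were -1.01 to 0.44 for Mt1, -0.78 to 0.31 for Mt2, -0.87 to 0.072 for Mt3, -0.98 to 0.14 for Apoe, -0.78 to 0.067 for Clu in all retained barcodes (above 0 without placebo mouse 3), -0.73 to 0.42 for Mt1, -1.19 to 0.36 for Mt2, -0.51 to 0.35 for Mt3, -1.755 to -0.54 for Apoe, -0.57 to 0.23 for Clu in glutamatergic-like barcodes, with 0 to 5 genes called (5 without placebo mouse 5), and -0.073 to 0.68 for Mt1 and -0.45 to 0.35 for Mt3 in astrocyte-like barcodes.

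Not run were the fits of astrocyte-like barcodes with over 1000 genes (7 barcodes in the smallest mouse) and of glutamatergic-like classes taken from marker UMIs (8). With 3 mice per treatment and 267231 UMIs in the shallowest mouse, 7% of genes changed 2-fold were called in simulated sums of all retained barcodes.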

Other observations

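The low Mt3 of 2 mice, noticed after the values were seen, was seen in retained, low, astrocyte-like and glutamatergic-like barcodes. OPC-like, oligodendrocyte-like and endothelial-like barcodes held only 16, 28 and 3 Mt3 UMIs over all mice. Of these, placebo mouse 5 and EPO mouse 2 had 0 and 4, 2 and 2, and 1 and 0. These counts are too few to judge the pattern in those classes. In retained barcodes Mt3 was 117 CPM in placebo mouse 5 and 112 in EPO mouse 2, against 259 to 539 in the other 4 mice. In barcodes with 500 genes or fewer it was 119 and 127, against 259 to 336. These 2 mice differ in treatment and in D number. In OPC-like barcodes 1 barcode of placebo mouse 1 held 22 of the 59 Mt1 UMIs of the class, and 1 held 10 of the 16 Mt2 UMIs.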
